A study of Rattus norvegicus with 12 samples.

Results

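Of 14324 genes measured in cultured rat aorta, 6 form the set described here: Cxcl1, Cxcl2, Cxcl3, Cxcl6, Ppbp and Pf4. They were chosen by symbol, as the genes for CXC chemokines of the neutrophil-attracting branch and their close neighbours. The choice was made with earlier results of these data known. Each gene was measured by 1 probe set. All 6 passed into the fit, since no filter on low values was set. Rings of aorta from male Fisher 344 rats, aged 1 to 2 months, were embedded in a gel of collagen or of fibrin and kept in serum-free medium. RNA was taken at day 2 from pools of 4 to 6 ring cultures. The 12 arrays form 4 groups of 3: fibrin TNF, fibrin control, collagen TNF and collagen control, where TNF is recombinant rat TNF-alpha at 10 ng/ml and controls were left untreated. Pooling averages over rings, and the titles call a group's 3 samples biological replicates without saying whether their rings came from separate animals. The p-values refer to the spread among these samples. The comparisons share arrays and are not independent of each other.

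CXC chemokines are small secreted proteins that bind to heparan sulfate on vessel walls and draw leukocytes along. Those that carry the tripeptide ELR ahead of the CXC motif act on the receptors CXCR1 and CXCR2 of neutrophils, and in the rat Cxcl1, Cxcl2 and Cxcl3 are the GRO-like members and Cxcl6 the counterpart of mouse LIX. Their genes are classical NF-kB targets of TNF and interleukin-1 in endothelial cells, fibroblasts and smooth muscle, and their transcripts are short-lived. Ppbp and Pf4 are best known from platelet granules. PPBP gains its neutrophil-attracting activity when it is cleaved, whereas PF4 lacks the ELR motif and is a poor neutrophil attractant, so the label of the set fits Pf4 least.

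The 6 genes lie together on chromosome 14 of the RefSeq annotation of assembly GRCr8, in the order Cxcl2, Cxcl1, Cxcl3, Pf4, Ppbp and Cxcl6, and no other gene with a chemokine symbol stands between them in that annotation. A RefSeq promoter sequence was matched for 4 of the 6 genes. The 150 bases ahead of the transcription start are shown for all 4 of these, Cxcl1, Cxcl2, Cxcl6 and Ppbp. None was matched for Pf4 or for Cxcl3, which was also higher in fibrin than in collagen. The part of these sequences in the levels was not tested. They are read 5′ to 3′ on the minus strand of GRCr8, at chr14:17479322-17479471 for Cxcl1, chr14:17467256-17467405 for Cxcl2, chr14:17596418-17596567 for Cxcl6 and chr14:17587300-17587449 for Ppbp. The first run of capitals marks matches to the NF-kB consensus on either strand, and the second marks the letters ATAAAAG on the gene strand.
Cxcl1: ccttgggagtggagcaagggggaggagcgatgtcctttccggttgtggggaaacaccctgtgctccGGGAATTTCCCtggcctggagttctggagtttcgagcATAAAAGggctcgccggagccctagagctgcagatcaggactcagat
Cxcl2: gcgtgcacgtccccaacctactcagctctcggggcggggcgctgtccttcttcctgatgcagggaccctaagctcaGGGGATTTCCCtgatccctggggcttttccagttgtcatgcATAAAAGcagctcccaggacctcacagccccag
Cxcl6: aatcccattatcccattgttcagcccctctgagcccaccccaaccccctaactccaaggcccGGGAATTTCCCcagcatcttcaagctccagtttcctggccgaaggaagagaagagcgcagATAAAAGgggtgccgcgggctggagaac
Ppbp: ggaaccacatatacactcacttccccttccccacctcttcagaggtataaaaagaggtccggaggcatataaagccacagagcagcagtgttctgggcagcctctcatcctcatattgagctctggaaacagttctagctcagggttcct

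The NF-kB consensus match starts 84 bases before the transcription start in Cxcl1, 88 in Cxcl6 and 74 in Cxcl2. In Cxcl1 and Cxcl6 the match holds the same letters, GGGAATTTCC, and overlaps a match on the opposite strand that starts 1 base downstream. In Cxcl2 it reads GGGGATTTCC and overlaps matches on both strands that start 1 base downstream. ATAAAAG follows in all 3, at 47, 33 and 28 bases before the start in Cxcl1, Cxcl2 and Cxcl6. Among 33469 RefSeq promoters of 300 bases, 7.51% hold the NF-kB consensus on either strand, 0.0747% hold GGGAATTTCC on either strand and 3.37% hold ATAAAAG on the gene strand. The motifs were chosen with these sequences in view, and the matches describe letters, not binding. The Ppbp window holds neither run in those exact letters, although it holds tataaaaag and tataaag, which are close to ATAAAAG.

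Across the whole table, column medians lay between 5.89 and 5.98 (log2), and 0 pairs of arrays were identical. Markers of the vessel wall were present: the mean log2 level lay between 7.84 and 8.61 over 8 measured smooth muscle genes, between 8.16 and 8.56 over 9 endothelial genes and between 10.61 and 11.10 over 10 fibroblast genes. Over 17 neutrophil markers it lay between 4.69 and 4.87 in all, from 4.69 to 4.73 on the collagen control arrays, 4.79 to 4.86 on collagen TNF, 4.73 to 4.87 on fibrin control and 4.78 to 4.86 on fibrin TNF, so both TNF groups lay just above collagen control. These are levels of whole cultures, in which fewer cells of a type and less RNA per cell cannot be told apart. No detection calls were used here, so whether the lowest levels lie above array background is not known. Members of this family are alike in sequence and may share probes, which was not tested.

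The 6 genes fell into unlike patterns over the 4 groups. Cxcl1, Cxcl2, Cxcl3 and Cxcl6 were higher in fibrin than in collagen with TNF and without it, Pf4 was not, and Ppbp lay between 4.20 and 4.61 (log2) on all 12 arrays. With TNF, Cxcl1 and Cxcl6 rose in collagen and Cxcl2 rose in fibrin, and Cxcl1, Cxcl3 and Pf4 also passed in fibrin with the replicate number as a block. The difference of the TNF effects between gels passed for none of the 6 genes in the fit with a mean per group alone, for Cxcl1 in 6 alternatives without a block, and for Cxcl1, Cxcl2 and Cxcl6 with the block.

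**Figure D1:**
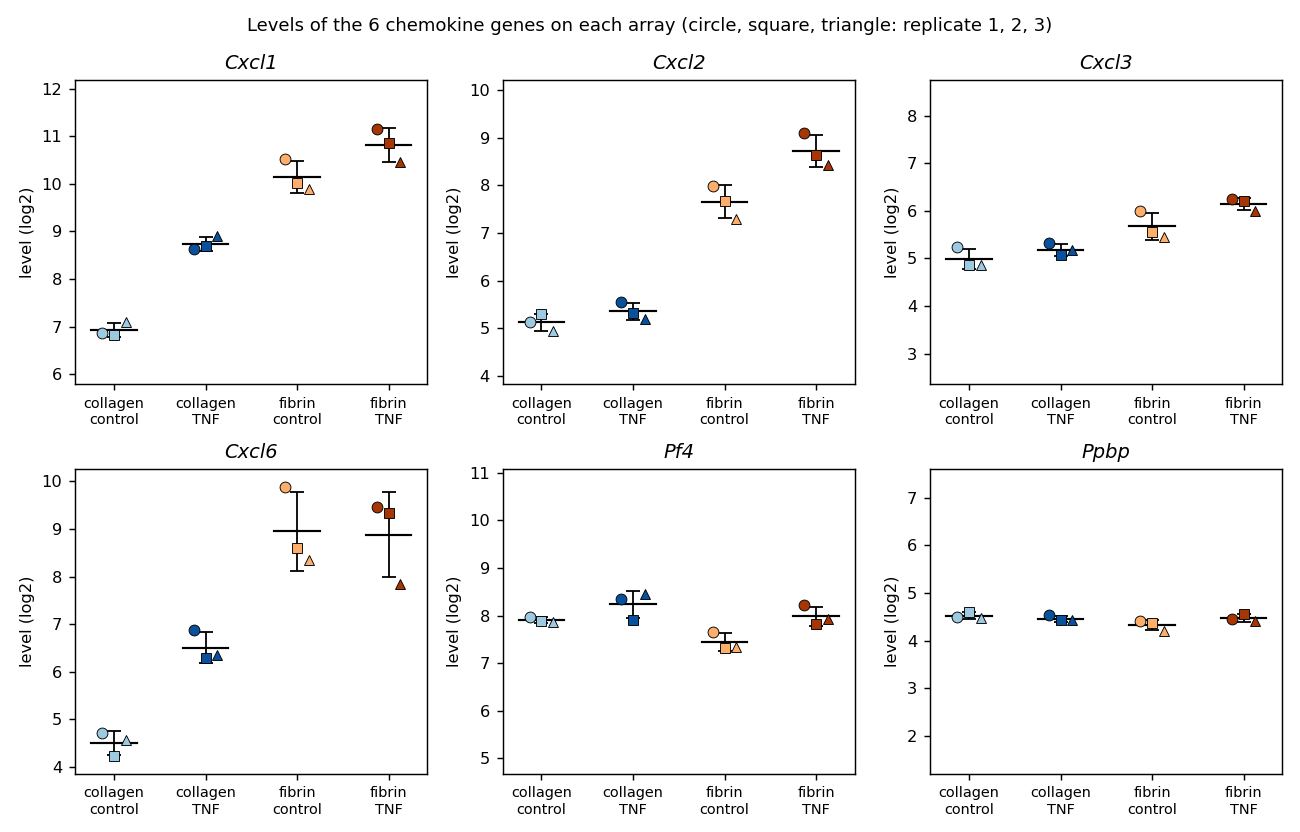
Level of each gene on each array (log2, vertical axis, the same span in every panel) in the 4 groups. Symbols mark replicates 1 to 3, the long line is the mean and the bar is the SD (n = 3). The fibrin arrays lie above every collagen array for Cxcl1, Cxcl2, Cxcl3 and Cxcl6, and Ppbp lies between 4.20 and 4.61 on all arrays.

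Untreated fibrin was compared with untreated collagen to ask what the gel alone was associated with. Cxcl6 differed most, 21.8-fold, followed by Cxcl1 at 9.33-fold, Cxcl2 at 5.79-fold and Cxcl3 at 1.61-fold. On the collagen control arrays Cxcl6 lay at 4.23 to 4.71 (log2), near Ppbp at 4.47 to 4.61. Cxcl2 and Cxcl3 in collagen also lay below the column medians. Whether these levels lie above array background is not known, so the order of folds holds for the measured values only. All 4 passed the test in limma, out of 6 members, where 5.35% of all genes were called higher in fibrin at an adjusted p under 0.05. The same 4 had no overlap between their fibrin and collagen arrays, which held upward for 14.3% of all genes. The median log2 difference of the 6 members was 1.61, against -0.01 over all genes tested.

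Cxcl6, the LIX-like neutrophil attractant, measured 4.71, 4.23 and 4.57 (log2) on the collagen control arrays and 9.89, 8.60 and 8.35 on the fibrin control arrays. Every fibrin array lay far above every collagen array, and the fibrin arrays were themselves more spread, with replicate 1 highest. The log2 difference was 4.45 ± 0.42 SE (limma adjusted p = 1.78e-05). It ranked 6 among the 14324 genes by size of difference.

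Cxcl1, the principal neutrophil attractant of the rat, measured 6.87, 6.82 and 7.10 on the collagen control arrays and 10.53, 10.02 and 9.89 on the fibrin control arrays. The lowest fibrin array (9.89) lay far above the highest collagen array (7.10), and replicate 1 was again highest in fibrin. The difference was 3.22 ± 0.18 SE (limma adjusted p = 2.59e-07).

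Cxcl2, which shares the receptor CXCR2 with Cxcl1, measured 5.13, 5.30 and 4.94 in collagen and 7.996, 7.67 and 7.30 in fibrin. Its groups did not overlap either, and the difference was 2.53 ± 0.19 SE (limma adjusted p = 2.06e-06). Cxcl3, the third GRO-like gene, measured 5.23, 4.86 and 4.86 in collagen and 5.998, 5.55 and 5.46 in fibrin. The order of the groups was the same but the gap was small, with a difference of 0.69 ± 0.14 SE (limma adjusted p = 0.0076).

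Pf4 ran the other way without passing the test. It measured 7.98, 7.88 and 7.86 on the collagen control arrays and 7.66, 7.31 and 7.35 on the fibrin control arrays, which did not overlap. Its difference was -0.47 ± 0.14 SE (limma adjusted p = 0.0546, interval -0.78 to -0.16), and it passed in 7 of 15 alternatives. Ppbp differed by -0.19 ± 0.08 SE (limma adjusted p = 0.135), also without overlap, with the 3 arrays of 1 group below the 3 of the other. Arrays did not overlap in 15% of all genes in that downward direction.

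Marker lists moved beside this comparison, in which 767 of all 14324 genes were higher in fibrin and 743 lower. Of 16 measured macrophage markers, 11 were lower in fibrin and none of the other 5 passed in the other direction (median -0.76), and their mean level was 9.06 to 9.23 (log2) on the collagen control arrays and 8.19 to 8.45 on the fibrin control arrays. Of 7 measured platelet and megakaryocyte markers, 2 were lower, Rgs18 (-1.81) and P2ry12 (-1.24), which macrophages also express. The glycoprotein genes that define platelets did not pass: Gp1ba differed by 0.21, Gp5 by -0.34 and Gp9 by -0.16. Of 17 neutrophil markers, 1 was higher, the calprotectin subunit gene S100a9 (0.81), and 16 did not pass. Of 8 smooth muscle markers 4 were lower: Tagln (-0.81), Des (-0.57), Lmod1 (-0.56) and Myh11 (-0.46). Of 10 fibroblast markers 1 was higher and 3 lower, and 1 was lower among 9 endothelial and among 9 T cell markers. The part of these cell types in the member differences was not tested.

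With TNF in both gels the same 4 members were higher in fibrin, in another order of estimated fold. The change of a gene's gel difference with TNF is the same contrast as the difference of TNF effects described below. It passed for none of the 6 genes in the fit with a mean per group alone. Cxcl2 now differed most, 10.4-fold, then Cxcl6 at 5.19-fold, Cxcl1 at 4.23-fold and Cxcl3 at 1.95-fold. All 4 passed the test, where 4.55% of all genes were called higher, and none of the 4 overlapped between gels, as held upward for 14.8% of all genes. The median log2 difference of the 6 members was 1.52, against 0.00 over all genes.

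Cxcl2 measured 5.55, 5.32 and 5.19 (log2) on the collagen TNF arrays and 9.10, 8.64 and 8.43 on the fibrin TNF arrays. The lowest fibrin array (8.43) lay far above the highest collagen array (5.55), and the difference was 3.37 ± 0.19 SE (limma adjusted p = 1.18e-06). It ranked 4 among all genes by size. Cxcl6 measured 6.87, 6.30 and 6.35 in collagen with TNF and 9.45, 9.34 and 7.85 in fibrin with TNF. Replicate 3 of fibrin TNF was well below the other two, and the groups still did not overlap (2.38 ± 0.42 SE, limma adjusted p = 0.00354).

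Cxcl1 measured 8.64, 8.69 and 8.90 in collagen with TNF and 11.16, 10.85 and 10.46 in fibrin with TNF, a difference of 2.08 ± 0.18 SE (limma adjusted p = 1.61e-05). Cxcl3 measured 5.32, 5.06 and 5.17 against 6.25, 6.20 and 6.004, a difference of 0.97 ± 0.14 SE (limma adjusted p = 0.000883). For neither gene did the groups overlap. Pf4 differed by -0.25 ± 0.14 SE (interval -0.56 to 0.06) and Ppbp by 0.01 ± 0.08 SE (interval -0.15 to 0.18), and neither passed. Of 16 macrophage markers 11 were lower here too, with a median of -0.87, and of 17 neutrophil markers 17 did not pass. Over all 14324 genes, 652 were higher and 521 lower. Of 10 fibroblast markers 4 were lower, of 9 T cell markers 1 was lower, of 7 platelet markers 1 was lower, and no endothelial or smooth muscle marker passed.

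The calls on Cxcl1, Cxcl2, Cxcl3 and Cxcl6 in both matrix comparisons held under every alternative run, including each fit with 1 array left out. The background moved more: after centring each array on its median, all genes called higher and lower numbered 1217 and 474 without TNF, against 767 and 743, and 880 and 387 with TNF, against 652 and 521. With TNF, 1173 genes were called in all, and 727 without collagen TNF replicate 3 or 768 without fibrin TNF replicate 1.

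**Figure D2:**
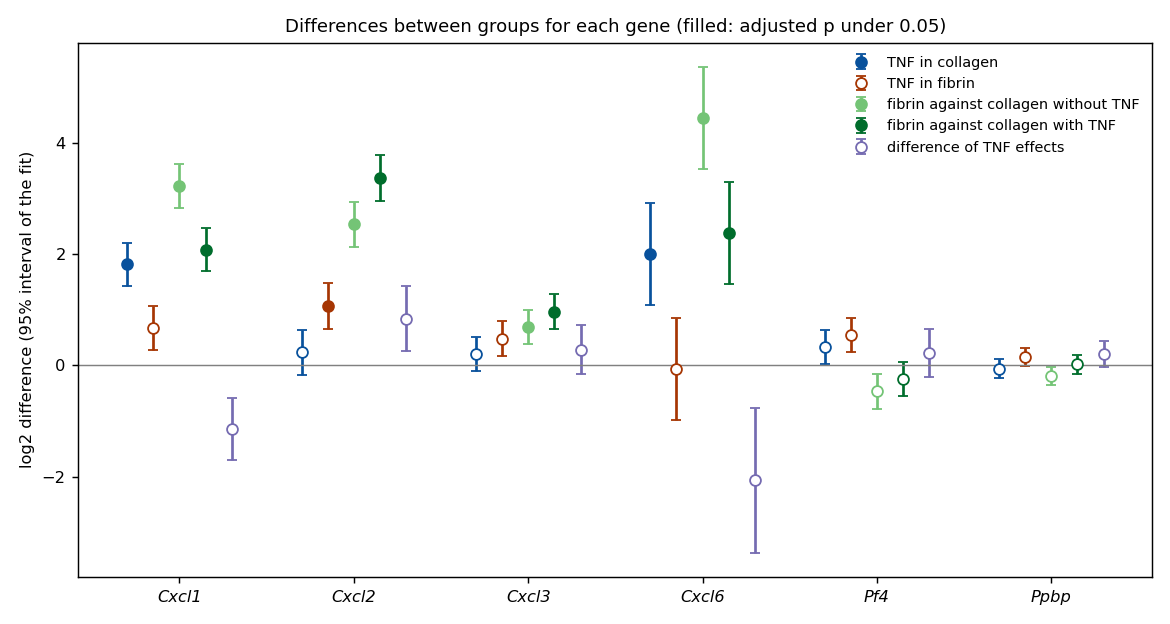
Log2 difference of each gene in the 5 main comparisons (vertical axis), with the 95% interval of the fit. Filled points passed an adjusted p of 0.05. Both fibrin-against-collagen points are filled for Cxcl1, Cxcl2, Cxcl3 and Cxcl6. For TNF, Cxcl1 and Cxcl6 are filled in collagen and Cxcl2 in fibrin, and no point is filled for the difference of the TNF effects.

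TNF in collagen raised 2 of the 6 members, Cxcl6 4.01-fold and Cxcl1 3.51-fold, where 3.27% of all genes were called higher. The arrays of these 2 did not overlap, which held upward for 12.7% of all genes. Cxcl2, Cxcl3, Pf4 and Ppbp did not pass. The values of each array are those given for the collagen control and collagen TNF groups.

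For Cxcl1 the lowest TNF array (8.64) lay above the highest control array (7.10), and the arrays within each group lay close together. The log2 difference was 1.81 ± 0.18 SE (limma adjusted p = 6.50e-05), and same-numbered samples differed by 1.77, 1.87 and 1.80. For Cxcl6 the lowest TNF array (6.30) lay above the highest control array (4.71). The difference was 2.00 ± 0.42 SE (limma adjusted p = 0.0130). That call was lost without collagen control replicate 2 (1.87, adjusted p = 0.0571) or collagen TNF replicate 1 (1.82, adjusted p = 0.0580), where the range over its 15 alternatives was 0.000794 to 0.0580.

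Cxcl2 and Cxcl3 did not pass in collagen. Both lay below the column medians of 5.89 to 5.98 on every collagen array, and whether such levels lie above array background is not known. Cxcl2 differed by 0.23 ± 0.19 SE (limma adjusted p = 0.587, interval -0.18 to 0.64) and Cxcl3 by 0.20 ± 0.14 SE (limma adjusted p = 0.520, interval -0.11 to 0.51), and in both the groups overlapped. Pf4 differed by 0.33 ± 0.14 SE (limma adjusted p = 0.230). Its TNF arrays 1 and 3 stood above the controls, and array 2 at 7.92 lay among them. Ppbp differed by -0.06 ± 0.08 SE (limma adjusted p = 0.755). Over all genes 912 passed, 468 higher and 444 lower. Leaving out collagen control replicate 2 gave 601, and replicate 3 gave 568. Leaving out collagen TNF replicate 1 gave 589, and replicate 2 gave 568. Of 17 neutrophil markers 1 was higher, the integrin gene Itgam (0.50), of 16 macrophage markers 2 were higher and 2 lower, and of 7 platelet markers 1 was lower, Rgs18 (-0.86). Of 8 smooth muscle markers 3 were lower, Tagln (-0.83), Lmod1 (-0.60) and Des (-0.57). Of 10 fibroblast markers 2 were higher and 2 lower, of 9 endothelial markers 1 was lower, and no T cell marker passed. Their part in these differences was not tested.

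TNF in fibrin raised 1 of the 6 members, Cxcl2, 2.10-fold, where 1.65% of all genes were called higher. Its log2 difference was 1.07 ± 0.19 SE (limma adjusted p = 0.0076), and the lowest TNF array (8.43) lay above the highest control array (7.996). The call held in every alternative run, with adjusted p between 0.00138 and 0.0372.

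Replicate 1 was the highest array of its group for Cxcl1, Cxcl2, Cxcl3, Cxcl6 and Pf4, in fibrin control and in fibrin TNF. An alternative fit took the replicate number as a block inside each gel, since deviations of same-numbered samples correlated across genes. With that block 4 of the 6 members passed in fibrin, where 3.88% of all genes did: Cxcl2, Cxcl1 (0.67, adjusted p = 0.00313), Pf4 (0.55, adjusted p = 0.0247) and Cxcl3 (0.48, adjusted p = 0.0265).

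In the fit with a mean per group alone the last 3 did not pass, and Pf4 passed in 4 alternatives without a block. Cxcl1 differed by 0.67 ± 0.18 SE (limma adjusted p = 0.0704), and its groups overlapped, since fibrin TNF replicate 3 (10.46) lay below fibrin control replicate 1 (10.53). Within same-numbered samples it differed by 0.63, 0.83 and 0.56. Cxcl3 differed by 0.48 ± 0.14 SE (limma adjusted p = 0.103), with the lowest TNF array (6.004) just above the highest control array (5.998).

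Pf4 differed by 0.55 ± 0.14 SE (limma adjusted p = 0.0591). It measured 8.22, 7.83 and 7.92 with TNF, against 7.66, 7.31 and 7.35 without it, and same-numbered samples differed by 0.56, 0.51 and 0.58. Its arrays did not overlap, nor did those of Cxcl2, Cxcl3 and Ppbp, 4 of 6 members, where this held upward for 10.2% of all genes. Of the 16 macrophage markers 1 was higher, Cd68, and 3 were lower, and of the 7 platelet markers 7 did not pass. Over all genes 237 were higher and 211 lower. Of 10 fibroblast markers 3 were lower, of 9 endothelial markers 1 was lower, and no smooth muscle, neutrophil or T cell marker passed. The part of these cell types was not tested.

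Cxcl6 gave no single direction in fibrin. Its difference was -0.07 ± 0.42 SE (limma adjusted p = 0.966), with an interval from -0.98 to 0.85 that spans changes in both directions. Same-numbered samples differed by -0.43, 0.74 and -0.51, so 1 pair rose and the other two fell. Without fibrin control replicate 1 the difference was 0.40, and without fibrin TNF replicate 3 it was 0.45. Ppbp differed by 0.15 ± 0.08 SE (limma adjusted p = 0.394).

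Single arrays moved the count of members in fibrin. Without the block it was 4 without fibrin control replicate 1, and 2 without fibrin TNF replicate 2 or replicate 3. In those fits 461, 539 and 287 of all 14324 genes passed. Over all genes 448 passed. Leaving out fibrin control replicate 2 gave 242, and replicate 3 gave 237. Leaving out fibrin TNF replicate 1 gave 255, and replicate 3 gave 287.

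**Figure D3:**
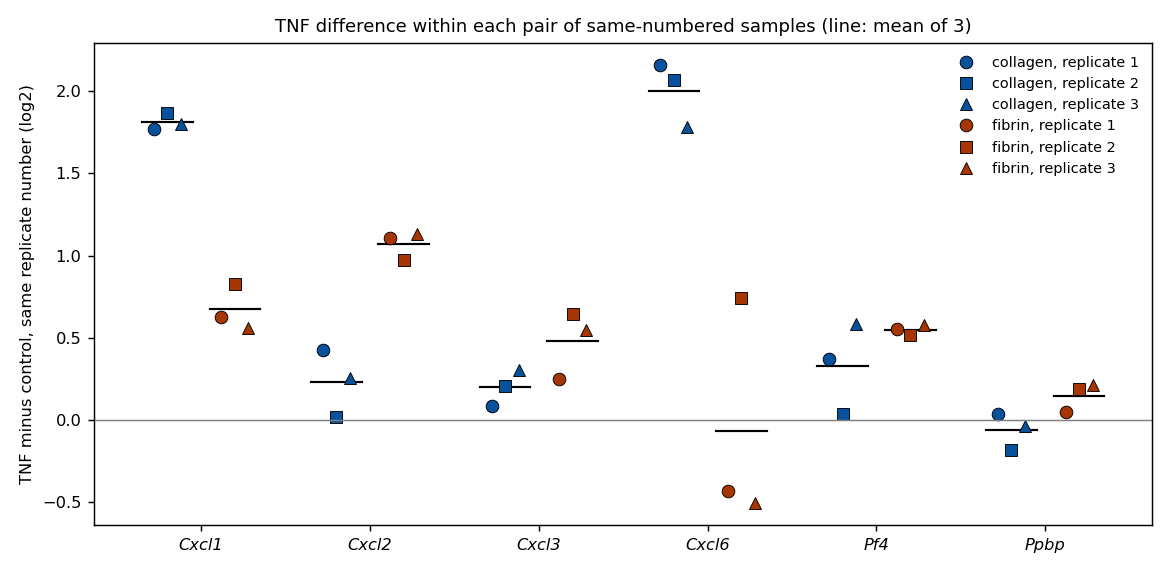
TNF minus control within samples of the same replicate number (log2, vertical axis) for each gene, in collagen (blue) and fibrin (brown), with the mean of 3 as a line. Cxcl1 lies at 1.77 to 1.87 in collagen and 0.56 to 0.83 in fibrin, Cxcl2 at 0.02 to 0.43 and 0.97 to 1.13, and the Cxcl6 pairs in fibrin lie on both sides of 0.

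Whether TNF acted differently in the 2 gels was tested as the difference of the TNF effects. In the fit with a mean per group alone 0 of the 6 members passed in limma, where 1.24% of all genes did, and 3 had an unadjusted p under 0.05. With the replicate number as a block 3 passed, where 1.45% of all genes did, in opposite directions: the TNF effect in fibrin was smaller for Cxcl1 and Cxcl6 and larger for Cxcl2.

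The difference for Cxcl1 was -1.14 ± 0.26 SE (limma adjusted p = 0.0562), and adjusted p = 0.00389 with the block. It was called in 7 of its 20 alternatives, with adjusted p between 0.00389 and 0.127. For Cxcl6 it was -2.07 ± 0.60 SE (limma adjusted p = 0.138), and adjusted p = 0.0259 with the block. For Cxcl2 it was 0.84 ± 0.27 SE (limma adjusted p = 0.175), and adjusted p = 0.0198 with the block. The block was the only alternative run in which Cxcl6 or Cxcl2 passed.

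Without TNF, Cxcl1, Cxcl2, Cxcl3 and Cxcl6 all had a higher level in fibrin than in collagen. Untreated fibrin was above collagen with TNF by 1.41 ± 0.18 SE for Cxcl1 (limma adjusted p = 6.17e-04) and by 2.44 ± 0.42 SE for Cxcl6 (limma adjusted p = 0.00662). The level in untreated fibrin enters the difference of TNF effects of every gene by definition. Cxcl2 in untreated fibrin was likewise above collagen with TNF, by 2.30 ± 0.19 SE (limma adjusted p = 1.85e-05). The part of the starting level in the TNF effects was not tested. Cxcl3 (0.28, interval -0.16 to 0.72), Pf4 (0.22, interval -0.22 to 0.65) and Ppbp (0.21, interval -0.03 to 0.44) did not pass in either fit. Over all genes 177 passed. Leaving out collagen TNF replicate 1 gave 117, replicate 2 gave 103, and leaving out fibrin control replicate 2 gave 112. Of the members 1, Cxcl1, passed without fibrin control replicate 3 or fibrin TNF replicate 1. All genes called higher and lower numbered 38 and 117 in the former fit and 37 and 90 in the latter.

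The groups were then ordered by level for each gene. Cxcl1 rose from collagen control through collagen TNF and fibrin control to fibrin TNF, with every neighbouring step called except the last, which passed with the block, and also without fibrin control replicate 1, fibrin TNF replicate 3 or the genes of lowest mean. For Cxcl2 the 2 collagen groups did not differ beyond their spread, and both later steps, to fibrin control and to fibrin TNF, passed. For Cxcl6 collagen control lay below collagen TNF, which lay below both fibrin groups, and those 2 did not differ beyond their spread.

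For Cxcl3 no single step between neighbouring groups passed in the fit of all 12 arrays without a block, and the step from fibrin control to fibrin TNF passed without fibrin control replicate 1 (0.65, limma adjusted p = 0.0176). The step from collagen TNF to fibrin control was 0.49 ± 0.14 SE (limma adjusted p = 0.117), and its ends, collagen control and fibrin TNF, differed by 1.17 ± 0.14 SE (limma adjusted p = 6.62e-05). Pf4 had another order, with fibrin control lowest, then collagen control, fibrin TNF and collagen TNF. None of its neighbouring steps passed in the fit without a block, although the step from fibrin control to collagen control did in 6 alternatives without one, and collagen control and fibrin TNF lay 0.08 apart (limma adjusted p = 0.762). Only the distance between fibrin control and collagen TNF was called (-0.80 ± 0.14 SE, limma adjusted p = 0.00795). Untreated fibrin was thus called against collagen with TNF for 4 members, 3 of them higher, where 1.47% of all genes were called higher and 1.19% lower. Over all genes 381 passed there, against 238 without collagen TNF replicate 2 and 230 without replicate 3. Between fibrin TNF and collagen control, a comparison added after seeing the data, 4 members were higher, where 10% of all genes were.

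How far the 4 fibrin-high genes differed from each other was measured within arrays, as the log2 level of one minus that of another. Such differences were tested for 24 pairs of genes and comparisons. In collagen the TNF effect on Cxcl1 exceeded that on Cxcl2 by 1.58 ± 0.26 SE, and in fibrin it fell short of it by 0.40 ± 0.09 SE (a log2 difference of -0.40). The difference between the effects on Cxcl1 and Cxcl6 in collagen was -0.19 ± 0.28 SE, and those groups overlapped. With 3 arrays against 3 an exact two-sided permutation test cannot go below p = 0.1, and the smallest value adjusted over the 24 tests was 0.133, so none could pass.

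The genes with the nearest profiles were found over the 12 arrays, as the smallest root mean square difference of log2 values after centring each gene on its own mean. Cxcl1 was nearest to Il1a (0.31), the gene of interleukin-1 alpha, and to the macrophage inflammatory protein gene Ccl3 (0.34), then to Slfn4 (0.40) and Tll1 (0.44). Cxcl6 was nearest to Cxcl1 (0.59), followed by the interferon-response genes Irf7 (0.66), Oasl (0.70) and Usp18 (0.71). Cxcl2 was nearest to Gbp5 (0.39), Herc6 (0.40), Ifi44l (0.45) and Csf3 (0.45), the gene of the granulocyte growth factor G-CSF. Cxcl3 was nearest to Tmem252 (0.15), Cd55 (0.17), Clec14a (0.17) and Nceh1 (0.18). The values for Cxcl3 are small because its whole range was only 1.39.

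Genes that induce or limit these chemokines were described from a list of 33, of which 29 were measured. Without TNF, 15 of the 29 were higher in fibrin and 14 did not pass (median 0.38), and with TNF in both gels 11 were higher and 18 did not pass (median 0.19). TNF in collagen raised 14 and 15 did not pass (median 0.30), while in fibrin 4 rose, 1 fell and 24 did not pass (median 0.10). Over all genes 5.35% were called higher in fibrin without TNF and 4.55% with it, and 3.27% and 1.65% with TNF in collagen and in fibrin. The median over all genes lay between -0.01 and 0.01 in each of these comparisons. The list was chosen with earlier results of these data known.

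The interleukin-1 genes, whose products induce the GRO-like chemokines, had large differences. Il1a was higher in untreated fibrin by 2.99 ± 0.22 SE and Il1b by 2.39 ± 0.19 SE, and TNF in collagen raised them by 1.88 ± 0.22 SE and 0.98 ± 0.19 SE (limma adjusted p between 1.49e-06 and 0.0067). Nfkbiz, which encodes a co-activator needed by a subset of NF-kB targets, was higher in untreated fibrin by 1.23 ± 0.07 SE (limma adjusted p = 2.84e-07). TNF raised it in collagen by 0.31 ± 0.07 SE, its value in fibrin was -0.24 (limma adjusted p = 0.0939), and the difference of the effects passed (-0.56 ± 0.10 SE, limma adjusted p = 0.0166). Nfkbia, the NF-kB inhibitor that NF-kB induces, differed by nearly the same amount in each of the 4 comparisons, from 0.70 to 0.85, and its difference of TNF effects was 0.04 ± 0.09 SE.

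The list holds 4 factors of mRNA stability, of which 2 passed between untreated gels. Zfp36, whose protein binds AU-rich elements of short-lived transcripts, was higher in untreated fibrin by 0.62 ± 0.10 SE (limma adjusted p = 9.73e-04) and rose with TNF in collagen by 0.42 ± 0.10 SE, and it did not pass with TNF in fibrin (-0.11) or between gels with TNF (0.08). Zc3h12a, which encodes the RNase Regnase, was higher in fibrin by 1.401 ± 0.10 SE without TNF and by 1.14 ± 0.10 SE with it. Zfp36l1 and Elavl1 did not pass in any of the 4 comparisons between groups, with 0.19 and 0.02 between untreated gels. Zfp36 and Zc3h12a encode proteins that limit inflammatory transcripts, so the list holds brakes and inducers side by side.

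**Figure D4:**
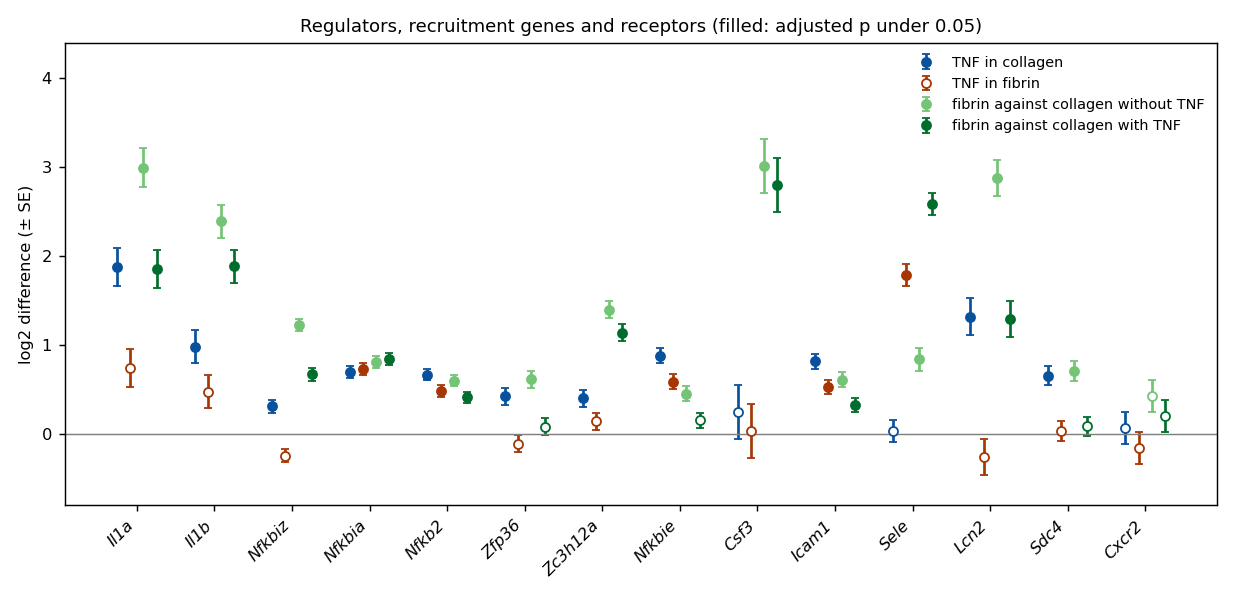
Log2 difference (vertical axis, ± SE of the fit) of regulators (Il1a to Nfkbie), recruitment genes (Csf3 to Lcn2) and receptor-list genes (Sdc4, Cxcr2) in 4 comparisons. Filled points passed an adjusted p of 0.05. Nfkbia is filled in all 4 comparisons, Csf3 in both fibrin-against-collagen comparisons, and Cxcr2 in none.

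On the receiving side, 12 of 14 listed genes of receptors, presentation and signalling were measured, and most did not pass. Cxcr2, the neutrophil receptor for the ELR chemokines, differed by 0.42 ± 0.18 SE between untreated gels (limma adjusted p = 0.169) and by 0.06 ± 0.18 SE with TNF in collagen. Sdc4, a heparan sulfate carrier, was higher by 0.71 ± 0.11 SE in untreated fibrin and rose by 0.66 ± 0.11 SE with TNF in collagen. Rac2 was higher in fibrin by 0.62 ± 0.17 SE without TNF (limma adjusted p = 0.0383) and by 0.77 ± 0.17 SE with it (limma adjusted p = 0.0159). It did not pass for TNF in either gel. Arrb1, which encodes an arrestin that ends signalling by chemokine receptors, was lower in all 4 comparisons, by -0.33 and -0.39 for TNF in collagen and fibrin and by -0.54 and -0.60 for fibrin against collagen without and with TNF.

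Other genes of neutrophil recruitment were described from a list of 20. Of 18 measured, 11 were higher and 2 lower in fibrin without TNF (median 0.63), and 8 were higher and 2 lower with it (median 0.27). Over all 14324 genes, 767 were higher and 743 lower without TNF, and 652 and 521 with it. Csf3 was higher by 3.02 ± 0.30 SE without TNF and 2.80 ± 0.30 SE with it (limma adjusted p = 2.72e-05 and 7.47e-05), while TNF itself gave 0.25 ± 0.30 SE in collagen and 0.03 ± 0.30 SE in fibrin. The smallest adjusted p between untreated gels belonged to Lcn2 (2.88), C3 (2.06) and Il6 (2.57), all higher in fibrin. Alox5ap, a gene of leukotriene synthesis, was lower in fibrin, by -1.68 ± 0.16 SE without TNF. Sele, the gene of E-selectin, which slows neutrophils on endothelium, rose with TNF in fibrin by 1.79 ± 0.13 SE. In collagen Sele did not pass (0.04 ± 0.13 SE), and its difference of TNF effects passed (1.75 ± 0.18 SE, limma adjusted p = 4.82e-04). With TNF in collagen 6 of the 18 rose and 1 fell, where 3.27% of all genes rose. In fibrin 4 of the 18 rose and 0 fell, where 1.65% of all genes rose. Icam1 rose in both gels, by 0.82 ± 0.08 SE in collagen and 0.53 ± 0.08 SE in fibrin.

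The 8 other CXC ligands measured set the members in their family. Without TNF 6 were higher and 2 lower in fibrin (median 1.58), where 767 of all 14324 genes were higher and 743 lower. The largest differences were those of Cxcl11 (4.86 ± 0.30 SE) and Cxcl10 (4.46 ± 0.27 SE), which attract T cells through CXCR3. Cxcl12, a homeostatic ligand, was lower by -0.82 ± 0.15 SE. With TNF in collagen 5 rose and 1 fell, and with TNF in fibrin 1 rose, Cxcl16 (0.52 ± 0.07 SE), and 1 fell, Cxcl12 (-1.30 ± 0.15 SE). Over all genes 468 rose and 444 fell with TNF in collagen, and 237 rose and 211 fell in fibrin.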

How the data were processed

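The deposited table holds 27342 probe sets on 12 Affymetrix whole-transcript arrays, labelled from 200 ng of total RNA per the labels' protocols. The authors deposited them as what is taken here for log2 expression levels, a reading based on their span, 1.44 to 14.07. Log base, summarisation, background correction and normalization are not given in the sources used here, and limma is named without a version per the submitters' processing notes. A probe annotation named 1 gene for 15097 probe sets, several for 323 and none for 11922. The probe set of highest mean stood for each of 14324 genes. No batch is given in the labels used here, and precision is limited by the number of arrays: the median SE of a log2 difference was 0.09, and 0.13 for a difference of TNF effects.

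R 4.3.3 with limma 3.58.1 was used for all tests across genes (lmFit, then eBayes, 12 arrays, a mean for each of 4 groups, two-sided, Benjamini-Hochberg within each comparison over all genes, threshold 0.05). The fit was checked on simulated data. Intervals are 95% intervals of that fit. Groups and replicate numbers come from the sample titles. Deviations of same-numbered samples from their group means correlated across genes at 0.13, 0.14 and 0.14 within collagen and 0.25, 0.14 and 0.16 within fibrin. The main fit left this pairing out, and it entered an alternative fit and the differences of same-numbered samples. Which members passed for TNF in fibrin and for the difference of TNF effects depended on that choice. Between gels the values were 0.05, 0.03 and 0.14 with TNF and 0.23, 0.08 and 0.13 without. The main fit took no pairing between gels either, although the highest value between gels without TNF was near the highest within a gel. Named list genes were drawn from the 4 called of smallest adjusted p and from genes fixed by role, and not all of these are named. The 4 nearest profiles are given in full. Platelet marker genes named beside Pf4 and Ppbp, lone called markers, Zfp36l1 and Elavl1 were chosen after their values were seen. Members and lists were chosen with earlier results of these data known. The comparison of fibrin TNF with collagen control and the tests within arrays were added after seeing the data.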

Additional observations from a re-analysis of the deposited data

How the results depend on the processing

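Alternatives were quantile normalization, median centring, leaving out the 33.3% of genes of lowest mean (which removes Ppbp), a fit of the compared groups alone, a robust prior with a trend, array weights, all probe sets, the mean over the probe sets of a gene (which leaves the members unchanged, with 1 probe set each), the replicate number as a block, and each array left out. Of the single-gene values under them, 616 kept direction and side of the threshold, 28 newly passed, 2 no longer passed and 7 changed sign. Those 7 did not pass before or after: Cxcl6 with TNF in fibrin (0.13 with array weights, -0.36 to 0.45 with 1 array left out), Ppbp between gels with TNF (-0.029 to 0.051 with 1 array left out, below 0 at -0.0052, -0.0027 and -0.0289) and Pf4 between fibrin TNF and collagen control (-0.0344 to 0.1597 with 1 array left out). The cause was not tested.

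For TNF in fibrin, where 1 member passed, 3 did without the genes of lowest mean, 2 with the trended prior and 4 with the replicate block. In those fits 590, 653 and 556 genes passed in all, against 448 in the main fit. When only the fibrin arrays were fitted, 230 genes passed in all. For the difference of TNF effects, where 0 members passed, 1 did with quantile normalization, median centring, array weights or without the genes of lowest mean. With the replicate block 3 did. For this difference 177 genes passed in all in the main fit. The total was 294 without the genes of lowest mean, 339 with the trended prior and 208 with the replicate block. Genes called higher and lower numbered 55 and 140 with quantile normalization, 49 and 135 with median centring and 51 and 118 with array weights. Leaving out 1 array at a time gave 1 to 2 members and 568 to 769 genes for TNF in collagen, 1 to 4 members and 237 to 539 genes for TNF in fibrin, 727 to 1196 genes for fibrin against collagen with TNF, 0 to 1 members and 103 to 246 genes for the difference, and 230 to 292 genes for untreated fibrin against collagen with TNF, against 381. After median centring, genes called higher and lower numbered 271 and 122 for untreated fibrin against collagen with TNF, against 210 and 171, and 1858 and 1118 for fibrin TNF against collagen control, against 1438 and 1426. Pf4 between untreated gels passed in 7 of 15 alternatives, with adjusted p from 0.0144 to 0.168. The replicate number was also taken as a block over all 4 groups. Correlations of same-numbered samples between gels ranged from 0.03 with TNF in both gels to 0.23 without TNF in either. Between gels of unlike treatment they ranged from -0.07 to 0.21. In that fit the calls on Cxcl1, Cxcl2, Cxcl3 and Cxcl6 between gels held. Pf4 passed between untreated gels (limma adjusted p = 0.0144) and Cxcl3 between untreated fibrin and collagen with TNF (limma adjusted p = 0.0146).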
